A study of Mus musculus with 8 samples.

Results

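The S100A calcium-binding protein genes were examined as a family of 9 members, S100a1, S100a4, S100a6, S100a8, S100a9, S100a10, S100a11, S100a13 and S100a16, among the 18561 genes of the deposited expression table. Members were taken by gene symbol, and the family was chosen by measured values: S100a6 was already known from these libraries to be among the genes with the smallest p between the groups. Differences of the members between the groups are therefore given as a description, with standard errors; counts of members past the threshold of the fit over all genes are printed beside the share of all genes and support nothing. The study measured RNA in enteric neural crest cells, the migrating progenitors of the gut's nervous system, to ask how lowering Emb bears on their development. Emb encodes embigin, a membrane glycoprotein of the immunoglobulin superfamily. Mouse embryos at embryonic day 14.5 were wild type or carried a knockdown of Emb whose construct, promoter and target cells are not given in the sources used here. Cells of the gastrointestinal tract in both groups were sorted with antibodies to CD271, the p75 neurotrophin receptor, and CD57, a carbohydrate epitope of migrating neural crest, at about 200 cells to a tube. There were 5 libraries labelled Emb knockdown and 3 labelled WT, and no label ties a library to an animal, so a p-value here covers the spread from library to library, some or all of which may be technical.

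S100 proteins are small, mostly dimeric proteins that carry a pair of EF-hand loops, and on binding calcium most of them expose a surface that docks onto target proteins such as annexins, myosin and tubulin. Some are also released from cells and act on receptors, among them the receptor for advanced glycation end products (Ager) and toll-like receptor 4. Several members mark cell types rather than a general calcium response: S100a8 and S100a9 form calprotectin in neutrophils and monocytes, S100a4 is found in fibroblasts and leukocytes, and S100b, which lies outside the A group, is the usual marker of enteric glia. Embigin itself has been described as a receptor for extracellular S100A4, and basigin, its relative, for S100A9.

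All 9 members lie on mouse chromosome 3 (GRCm38.p6) in a pair of clusters. S100a1 (90511034 to 90514330), S100a13 (90514233 to 90524581), S100a16 (90537254 to 90543151), S100a4 (90603770 to 90606045), S100a6 (90612894 to 90614414), S100a8 (90669071 to 90670034) and S100a9 (90692630 to 90695721) make up the first. S100a11 (93520496 to 93526288) and S100a10 (93555117 to 93564645) lie 2907.6 and 2942.2 kb beyond the start of S100a6. S100a1 and S100a9 are read on the minus strand and the other 7 on the plus strand.

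S100a1 and S100a13 sit head to head. Their start sites, at 90514330 on the minus strand and 90514435 on the plus strand, are 105 bases apart, and their promoter windows, 250 bases before to 50 after the start site in the RefSeq table of GRCm38.p6, share 204 bases (chr3:90514281-90514484). The windows are shown because levels of these genes moved together across libraries, and the shared part is in capitals; each sequence runs 5′ to 3′ on its own gene's strand, so the capitals of one are the reverse complement of the other's.
S100a1 (chr3:90514281-90514580, minus strand): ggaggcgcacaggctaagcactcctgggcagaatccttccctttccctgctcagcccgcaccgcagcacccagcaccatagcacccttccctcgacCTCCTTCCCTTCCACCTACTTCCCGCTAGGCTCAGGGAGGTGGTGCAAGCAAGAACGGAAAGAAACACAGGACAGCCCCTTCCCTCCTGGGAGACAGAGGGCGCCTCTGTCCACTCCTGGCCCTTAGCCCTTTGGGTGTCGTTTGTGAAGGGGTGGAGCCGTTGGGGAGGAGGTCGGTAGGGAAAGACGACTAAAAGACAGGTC
S100a13 (chr3:90514185-90514484, plus strand): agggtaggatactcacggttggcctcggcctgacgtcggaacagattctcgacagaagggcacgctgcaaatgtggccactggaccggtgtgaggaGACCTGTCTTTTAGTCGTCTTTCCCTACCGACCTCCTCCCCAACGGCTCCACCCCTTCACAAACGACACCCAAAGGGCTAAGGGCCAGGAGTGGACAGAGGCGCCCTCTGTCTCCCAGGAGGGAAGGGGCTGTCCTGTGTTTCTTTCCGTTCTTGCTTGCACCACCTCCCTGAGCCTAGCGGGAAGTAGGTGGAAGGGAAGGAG
The gene spans overlap by 98 bases in RefSeq, while exons of these genes share 0 bases in GENCODE M21. Smart-seq2 libraries do not mark strand, so reads in the overlap of the spans cannot be assigned to one gene by strand.

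Calprotectin genes S100a8 and S100a9 lie on opposite strands and do not share a promoter window. Capitals mark the motifs found in them, in S100a6 and in S100a11, the most abundant member. Library-scaled counts of S100a6 lay close together in the libraries labelled knockdown. Searched on both strands were the AP-1 motif TGANTCA, the TATA box TATAAA, the CCAAT box, the GC box GGGCGG and TTGCNNAA, a C/EBP-type motif. All of them were chosen with earlier results of these data known.
S100a8 (chr3:90668821-90669120, plus strand): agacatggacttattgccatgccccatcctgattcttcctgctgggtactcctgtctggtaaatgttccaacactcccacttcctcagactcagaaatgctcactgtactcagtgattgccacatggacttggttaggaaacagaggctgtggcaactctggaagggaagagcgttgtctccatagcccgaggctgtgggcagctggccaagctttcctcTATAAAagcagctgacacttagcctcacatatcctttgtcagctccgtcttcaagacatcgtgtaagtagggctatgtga
S100a9 (chr3:90695672-90695971, minus strand): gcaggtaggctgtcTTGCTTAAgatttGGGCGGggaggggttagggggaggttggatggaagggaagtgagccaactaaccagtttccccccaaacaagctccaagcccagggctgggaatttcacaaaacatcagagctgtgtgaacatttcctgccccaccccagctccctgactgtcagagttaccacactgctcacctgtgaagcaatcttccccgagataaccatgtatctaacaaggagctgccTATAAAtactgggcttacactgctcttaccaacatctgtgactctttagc
S100a6 (chr3:90612644-90612943, plus strand): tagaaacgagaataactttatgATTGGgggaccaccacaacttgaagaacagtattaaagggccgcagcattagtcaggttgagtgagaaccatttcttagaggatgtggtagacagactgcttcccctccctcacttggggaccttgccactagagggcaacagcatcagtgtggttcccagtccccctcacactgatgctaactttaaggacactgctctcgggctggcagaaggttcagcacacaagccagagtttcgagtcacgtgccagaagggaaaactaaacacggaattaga
S100a11 (chr3:93520246-93520545, plus strand): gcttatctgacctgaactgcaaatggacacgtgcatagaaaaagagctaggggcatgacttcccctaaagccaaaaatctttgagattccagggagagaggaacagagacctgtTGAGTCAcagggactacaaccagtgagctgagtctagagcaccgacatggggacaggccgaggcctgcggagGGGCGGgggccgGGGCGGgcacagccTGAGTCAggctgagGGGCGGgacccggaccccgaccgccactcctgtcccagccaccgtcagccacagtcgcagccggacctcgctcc
S100a8 held TATAAA at -30 from its start site, counted as +1, and S100a4 held it at -31. S100a9 held TATAAA at 1, that is at the annotated start itself, TTGCTTAA at -236 and GGGCGG at -223. S100a6 held a CCAAT box on the reverse strand (ATTGG) at -228. S100a11 held TGAGTCA at -136 and -38 and GGGCGG at -64, -52 and -24. Neither S100a1 nor S100a13 held any of the 5 motifs in its window. Of the windows of S100a16, the one at 90540896 to 90541195 held TGAATCA at -192 and GGGCGG at -30, and the other, at 90537004 to 90537303, held none. Among 32851 mouse promoter windows of the same length, 7.81% held TGANTCA, 13.6% TATAAA, 37.4% CCAAT, 35.7% GGGCGG and 10.8% TTGCNNAA. A match describes letters in a window and not a bound site. Of the 9 members, 8 matched the promoter table, with 9 windows, and S100a10 did not.

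Total expected counts ran from 20116566 to 26959246 in a library, and 15079 to 17049 genes had a count. Levels across libraries are library-scaled counts with TMM factors (CPM), on which 3 counts correspond to 0.0966 to 0.155 CPM. Emb went against the labels: it reached 353, 349, 37.2, 21.4 and 21.7 CPM in the libraries labelled knockdown 1 to 5 and at 16.9, 17.7 and 15.9 CPM in WT 1 to 3. Groups are therefore named by their labels throughout, and no direction below is a measured effect of lower Emb RNA. Knockdown-labelled libraries 1 and 2 stood apart from the other 6. The summed level of 16 macrophage and leukocyte genes was 31240 and 25770 CPM in them, 1544 to 2778 CPM in knockdown-labelled libraries 3 to 5 and 423 to 717 CPM in WT, with none of the 16 at 0 in any library. The summed level of 20 enteric neural crest genes was 435 and 373 CPM in them, against 1862 to 2207 CPM and 4235 to 4811 CPM; Sox10, which defines these progenitors, was at 5.51 and 0 CPM there, at 68.0 to 77.6 CPM in libraries 3 to 5 and at 244 to 281 CPM in WT. Each comparison is given with all 8 libraries and with 6, without these. In bulk libraries, fewer cells of a type and less RNA per cell cannot be told apart.

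Levels of different genes were compared per length, in the deposited TPM values. S100a11, an annexin A1 partner also called calgizzarin, was the most abundant member in every one of the 8 libraries, at 452 ± 39.5 TPM in WT (SD, n = 3) and 577 ± 215 TPM in libraries labelled knockdown (SD, n = 5). S100a10, the annexin A2 partner whose EF-hands no longer bind calcium, followed at 414 ± 11.9 and 395 ± 118 TPM. In WT the ranges of these top members overlapped: S100a11 ran from 418 to 495 TPM and S100a10 from 404 to 427 TPM. Within each library S100a10 was the lower, with ratios to S100a11 of 0.863, 0.983 and 0.913 in WT 1 to 3. S100a16 came next in WT, at 229 ± 24.7 TPM, and then S100a8, at 141 ± 169 TPM. Values of S100a8 ran from 0 to 327 TPM there and overlapped those of both its neighbours in the order. S100a6 (62.1 ± 10.01 TPM), S100a1 (38.4 ± 7.38 TPM) and S100a13 (19.7 ± 1.82 TPM) came next and were separated from one another in every WT library. S100a9 (13.5 ± 12.5 TPM) and S100a4 (3.44 ± 1.43 TPM) had the lowest means in WT, and their values overlapped. This order of means did not hold in every library. S100a8 was the lowest member in WT 1, and in WT 3 S100a9 (25.75 TPM) was above S100a13 (21.82 TPM).

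The 9 genes together made up 1191, 1224, 1867, 1889 and 1616 TPM in knockdown-labelled libraries 1 to 5 and 1275, 1276 and 1566 TPM in WT 1 to 3. The summed levels of the groups overlapped. What differed was the make-up. S100a16 held 15.9% to 18.2% of the family's TPM in WT but 5.03%, 3.55% and 6.40% in knockdown-labelled libraries 3 to 5 and 0.399% in library 2. S100a6 held 7.81% to 11.7% in the libraries labelled knockdown and 3.27% to 5.56% in WT. The ratio of S100a16 to S100a6 in TPM was accordingly 2.85 to 4.90 in WT and 0.454 to 0.547 in knockdown-labelled libraries 3 to 5. S100a8 took 27.3% in knockdown-labelled library 4 and 20.9% in WT 3, and at most 14.5% in the other 6 libraries.

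**Figure D1:**
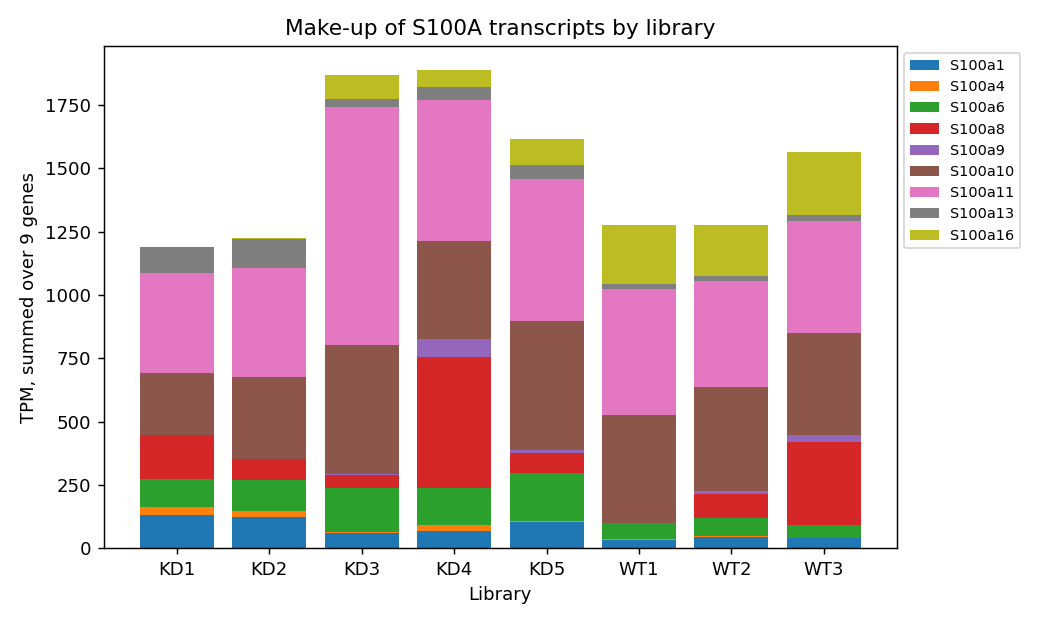
Stacked bars give the TPM of each of the 9 S100A genes in each library (x axis; KD, labelled Emb knockdown; WT, wild type), and the bar height is the family's summed TPM. S100a11 is the largest segment in every library, S100a8 comes close to it in KD4, and the S100a16 segment is widest in the 3 WT libraries.

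S100a6, or calcyclin, a partner of the ubiquitin-ligase adaptor Cacybp found in proliferating cells and fibroblasts, had similar CPM levels in all libraries labelled knockdown. These were 60.4, 59.7, 67.3, 64.4 and 73.4 CPM in knockdown-labelled libraries 1 to 5 and 21.9, 20.1 and 15.4 CPM in WT 1 to 3. Every library labelled knockdown was above every WT library. In CPM, libraries 1 and 2, which stood apart for other genes, were at about the level of the remaining 3. In TPM they were lower, at 110.4 and 120.5 against 174.4, 147.6 and 189.1 TPM, so this likeness depended on the scaling. WT 1 to 3 were at 64.2, 70.9 and 51.2 TPM. The log2 fold change, labelled knockdown against WT, was 1.76 ± 0.21 (SE) with 8 libraries and 1.84 ± 0.20 with 6. Across the 13 alternative settings of the 6-library comparison it ranged from 1.70 to 1.94, and across the 17 of the 8-library comparison from 1.45 to 1.90. The 13 mesenchyme genes summed to 7618, 6804 and 6731 CPM in knockdown-labelled libraries 3 to 5 and 3669, 4314 and 4850 CPM in WT. In libraries 1 and 2 they summed to 121 and 825 CPM, with 2 and 0 of the 13 at 0. S100a6 was at 60.4 and 59.7 CPM there, and the 16 macrophage and leukocyte genes summed to 31240 and 25770 CPM. The part of either set in the S100a6 levels was not tested. Cacybp itself ran from 154 to 211 CPM in knockdown-labelled libraries and from 162 to 173 CPM in WT, and its log2 fold change of 0.11 ± 0.16 (SE, 6 libraries) did not pass (edgeR quasi-likelihood test with Benjamini-Hochberg adjustment, adjusted p = 0.661).

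S100a11 was at 132, 129, 216, 146 and 133 CPM in knockdown-labelled libraries 1 to 5 and at 102, 69.7 and 78.0 CPM in WT 1 to 3. The groups did not overlap, and library 3 was above the other libraries labelled knockdown, which lay close together. The difference in log2 CPM, fitted as a fold change, was 0.86 ± 0.25 with 8 libraries and 0.99 ± 0.24 with 6 (SE). S100a11 has a pseudogene, S100a11-ps, with which reads could be shared. S100a10 was at 116, 139, 172, 148 and 172 CPM in knockdown-labelled libraries 1 to 5 and at 128, 102 and 106 CPM in WT 1 to 3. Library 1 fell below WT 1, so the groups overlapped with 8 libraries and did not with 6. The log2 fold change of S100a10 was 0.42 ± 0.20 with 8 libraries and 0.55 ± 0.17 with 6 (SE), the smallest of the family in both.

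S100a10 works as a tetramer with annexin A2, so its level was set beside Anxa2. The S100a10 to Anxa2 ratio in TPM was 1.27, 1.17, 1.43, 2.62 and 3.50 in knockdown-labelled libraries 1 to 5 and 1.41, 1.01 and 1.07 in WT. It was highest in knockdown-labelled libraries 4 and 5, where Anxa2 was lowest, at 152 and 129 CPM against 237 to 324 CPM in the other 6 libraries. The fold change of Anxa2 over 6 libraries was -0.37 ± 0.32 on the log2 scale (SE; edgeR, adjusted p = 0.436). S100a11 to Anxa1, the other classical pair, had ratios from 4.52 to 27.0 in libraries labelled knockdown and from 8.75 to 33.6 in WT, and the groups overlapped.

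S100a1, best known from heart and brain, where it tunes ryanodine receptors and the calcium pump of the sarcoplasmic reticulum, was at 56.7, 49.0, 18.6, 23.3 and 31.9 CPM in knockdown-labelled libraries 1 to 5 and at 8.39, 10.2 and 9.10 CPM in WT 1 to 3. S100a13, which takes part in the unconventional release of FGF1 and interleukin 1 alpha, was at 55.7, 56.5, 11.9, 23.2 and 21.1 CPM and at 6.30, 5.35 and 6.49 CPM. For both genes WT was lowest, knockdown-labelled libraries 3 to 5 were in between and libraries 1 and 2 were highest, with no overlap of the groups. For S100a1 the log2 fold change was 1.96 ± 0.43 with 8 libraries and 1.42 ± 0.26 with 6 (SE). That of S100a13 was 2.48 ± 0.59 with 8 libraries and 1.63 ± 0.31 with 6 (SE).

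Across libraries, log2 CPM of S100a1 and S100a13 had a Pearson correlation of 0.98 over 8 libraries and 0.95 over 6. Such a correlation was not particular to this pair. Over 6 libraries S100a6 correlated with S100a1 at 0.94 and with S100a13 at 0.91. Over 8 libraries Hk2 correlated with S100a1 at 0.994 and Ppwd1 with S100a13 at 0.997. Any part of the shared promoter window was not tested. The points share the group labels, and with 8 libraries also the pair of libraries with high leukocyte genes. The ratio of S100a1 to S100a13 in TPM stayed between 1.09 and 2.43 in all 8 libraries. The summed macrophage and leukocyte genes had the same order, highest in libraries 1 and 2 and lowest in WT, and their part in the levels of S100a1 and S100a13 was not tested.

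S100a16, an EF-hand protein found in many tissues, ran the other way from the rest of the family. Its level was 61.4, 48.3 and 63.4 CPM in knockdown-labelled libraries 3 to 5 and 134, 99.1 and 130 CPM in WT 1 to 3. In knockdown-labelled library 2 it was at 4.00 CPM, and in library 1 at 0.0515 CPM, below the 0.155 CPM that 3 counts give there. All WT libraries were above every library labelled knockdown. The log2 fold change was -1.77 ± 1.31 with 8 libraries and -1.07 ± 0.19 with 6 (SE). Its order over the libraries was also that of the 20 enteric neural crest genes, which summed to 435, 373, 1892, 1862 and 2207 CPM in knockdown-labelled libraries 1 to 5 and to 4811, 4235 and 4470 CPM in WT 1 to 3: libraries 1 and 2 lowest, 3 to 5 in between and WT highest. Of the 20 genes, 1, 5 and 1 were at 0 in knockdown-labelled libraries 1, 2 and 5 and none in the other 5. The order was not particular to these genes. The 10 endothelium genes summed to 83.9 and 74.6 CPM in libraries 1 and 2, with 2 and 3 of them at 0. They summed to 114 to 214 CPM in libraries 3 to 5 and to 510 to 720 CPM in WT. The part of either set in the S100a16 difference was not tested.

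S100a8 and S100a9, the calprotectin subunits, varied more within the groups than between them. S100a8 was at 35.1, 14.9, 6.51, 81.1 and 11.6 CPM in knockdown-labelled libraries 1 to 5 and at 0, 8.99 and 33.3 CPM in WT 1 to 3; the 0 in WT 1 allows up to 0.130 CPM at 3 counts. S100a9 was at 0.773, 0.471, 0.703, 19.2 and 2.90 CPM and at 0.174, 2.35 and 4.62 CPM. For both genes the highest value was that of knockdown-labelled library 4, the WT group had its highest value in WT 3, and the groups overlapped. For S100a8 the log2 fold change was 1.08 ± 1.51 with 8 libraries and 1.23 ± 1.42 with 6 (SE), and without knockdown-labelled library 4 it was 0.27 and -0.64. Leaving out WT 1 gave 0.50 and 0.64 for S100a8, and leaving out WT 3 gave 2.72 and 2.86. That of S100a9 was 1.01 ± 1.50 and 1.67 ± 1.21 (SE), and without knockdown-labelled library 4 it was -0.97 and -0.42. Without WT 1 it was 0.46 and 1.12 and without WT 3 it was 1.91 and 2.56. The sign of the S100a9 value in both comparisons, and of S100a8 with 6 libraries, thus turned without library 4.

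Calprotectin is a complex of both subunits, yet their RNA levels were far from equal. The TPM ratio of S100a8 to S100a9 was 75.5 and 54.0 in knockdown-labelled libraries 1 and 2, 16.1, 7.21 and 6.66 in libraries 3 to 5, and 6.80 and 12.7 in WT 2 and 3. S100a8 was thus the higher subunit in all 7 libraries where it was counted, and the excess was largest in the libraries with high macrophage genes. S100a9 had 15 and 10 counts in libraries 1 and 2, so the ratios there rest on few counts. Log2 CPM of the subunits correlated at 0.71 over 8 libraries and 0.92 over 6. Library 4 is the common high point and WT 1 the common low point.

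Neutrophil genes were set beside these members. The summed level of 16 such genes was 255, 173, 29.3, 124 and 70.0 CPM in knockdown-labelled libraries 1 to 5 and 17.3, 24.0 and 584 CPM in WT 1 to 3, with 0 to 5 of the 16 at 0 in libraries labelled knockdown and 9, 1 and 0 in WT. Retnlg, a gene of maturing neutrophils, was at 52.5 CPM in knockdown-labelled library 4, the library highest in S100a8 and S100a9, and at most 0.968 CPM in the other 7. In WT 3, the WT library highest in both subunits, the primary granule genes Mpo and Elane were at 371 and 99.3 CPM, against at most 4.05 and 1.41 CPM elsewhere. Csf3r, which encodes the receptor of the granulocyte growth factor G-CSF, reached 140 and 103 CPM in libraries 1 and 2, where S100a9 was at 0.773 and 0.471 CPM. Ly6g was at 0.281 CPM or less in all 8 libraries. In WT 1, where S100a8 was at 0, 9 of the 16 were at 0, Camp, Ngp and Retnlg among them. Cxcr2 was at 8.56 CPM there, above its 4.25 and 4.84 CPM in WT 2 and WT 3. Camp and Retnlg were also at 0 in knockdown-labelled library 1, where S100a8 was at 35.1 CPM. Whether these cells account for the levels of S100a8 and S100a9 was not tested.

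**Figure D2:**
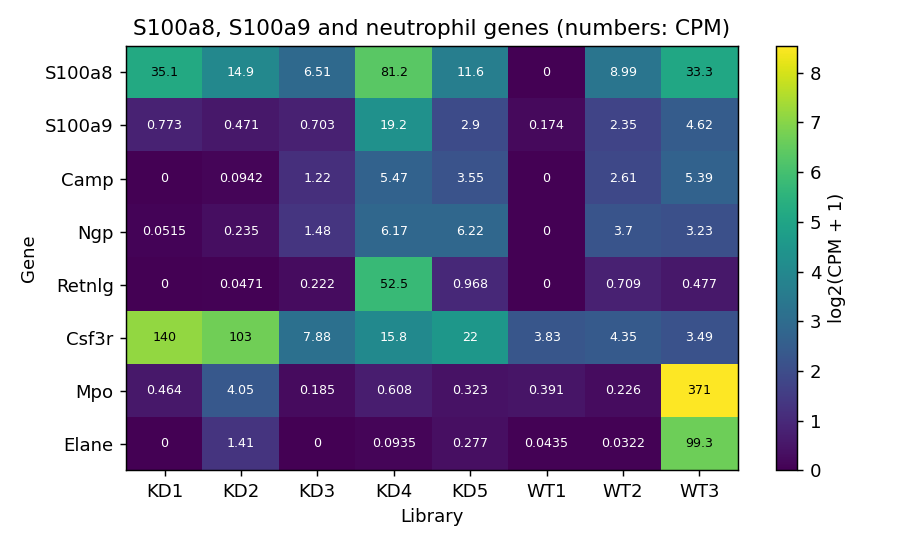
Colour gives log2(CPM + 1) and the printed number the CPM of S100a8, S100a9 and 6 neutrophil genes (y axis) in each library (x axis). S100a8, S100a9 and Retnlg are highest in KD4, and Mpo and Elane stand out in WT3.

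S100a4, a binding partner of the non-muscle myosin heavy chain Myh9, had the lowest mean TPM of the members in both groups, though not the lowest value in every library. It was at 10.1, 6.50, 0.925, 6.17 and 0.738 CPM in knockdown-labelled libraries 1 to 5 and at 1.00, 0.419 and 0.514 CPM in WT 1 to 3. Libraries 1, 2 and 4 were high, while libraries 3 and 5 were at or below the level of WT 1, so the groups overlapped. The log2 fold change was 2.92 ± 1.06 with 8 libraries and 2.02 ± 0.94 with 6 (SE), and without knockdown-labelled library 4 the latter was 0.38. The GENCODE annotation places another gene model, Gm42674, over S100a4, and reads of the overlap cannot be assigned to either without strand.

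**Figure D3:**
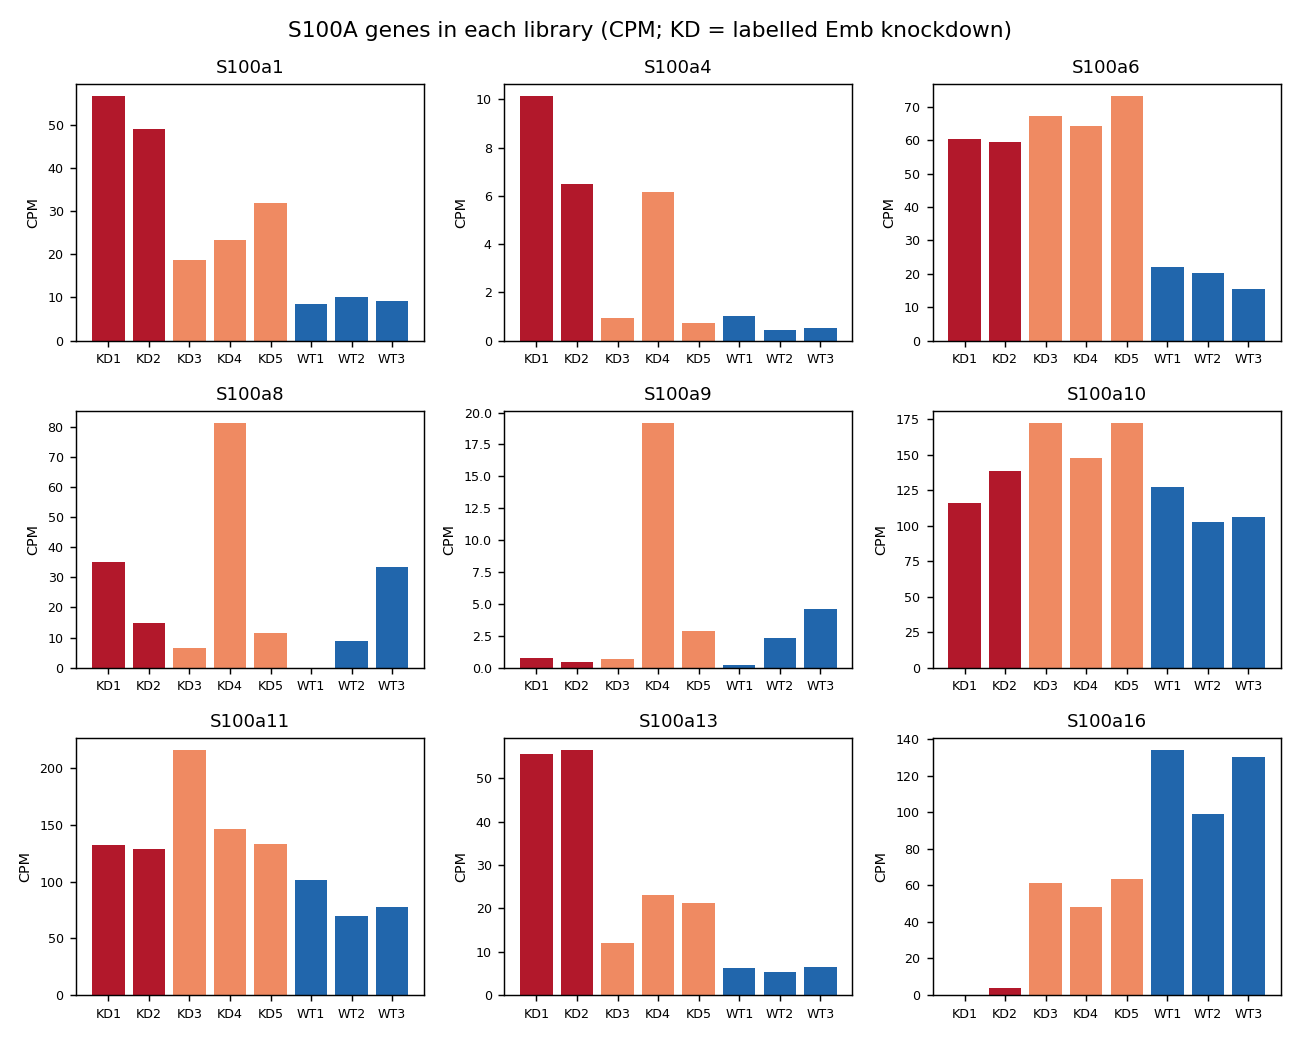
Each panel gives the CPM (y axis, from 0, its own scale) of 1 S100A gene in each library (x axis); dark red bars are the libraries labelled knockdown 1 and 2, light red bars 3 to 5 and blue bars WT. S100a6 has similar bars in KD1 to KD5, S100a16 is highest in WT, and S100a8 and S100a9 peak in KD4.

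Set against all genes, none of the 9 members passed the threshold (adjusted p under 0.05 over all genes tested, edgeR quasi-likelihood test) with 8 libraries, where 0 of 15411 genes, 0%, did. At an unadjusted p under 0.05 there were 2865 genes and 5 members, and DESeq2 called 2220 genes and 5 members, limma voom 3720 genes and 5 members. With 6 libraries, 6 of 9 members passed, 5 of them higher in the libraries labelled knockdown (S100a1, S100a6, S100a10, S100a11 and S100a13) and 1 lower (S100a16). Among all 15115 genes tested in that comparison 20.4% passed, 11.1% as higher and 9.37% as lower. The count of members fell to 1 without knockdown-labelled library 4, to 2 without WT 2 and to 1 without WT 3. Since the family was chosen with such values known, nothing is read from these counts. The call of S100a10 (adjusted p = 0.0471, edgeR) was lost in 9 of the 13 alternative settings, among them 5 of the 6 with a library left out. Calls of S100a1, S100a11 and S100a13 were lost in 3 settings each, that of S100a16 in 2 and that of S100a6 in 0. The groups did not overlap for 4 members in the higher and 1 in the lower direction with 8 libraries, where 10.8% and 11.9% of all genes did so, and for 5 and 1 with 6 libraries, where the shares were 20.4% and 23.0%. The median log2 fold change of the 9 members was 1.08 with 8 libraries and 1.42 with 6, beside 0.07 and 0.02 for all genes tested. Scaling by library size alone lowered the median of all genes by 0.24 with 8 libraries and left every member's direction as given; of the genes called with 6 libraries, 54.1% were higher with TMM and 45.4% with library size alone.

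**Figure D4:**
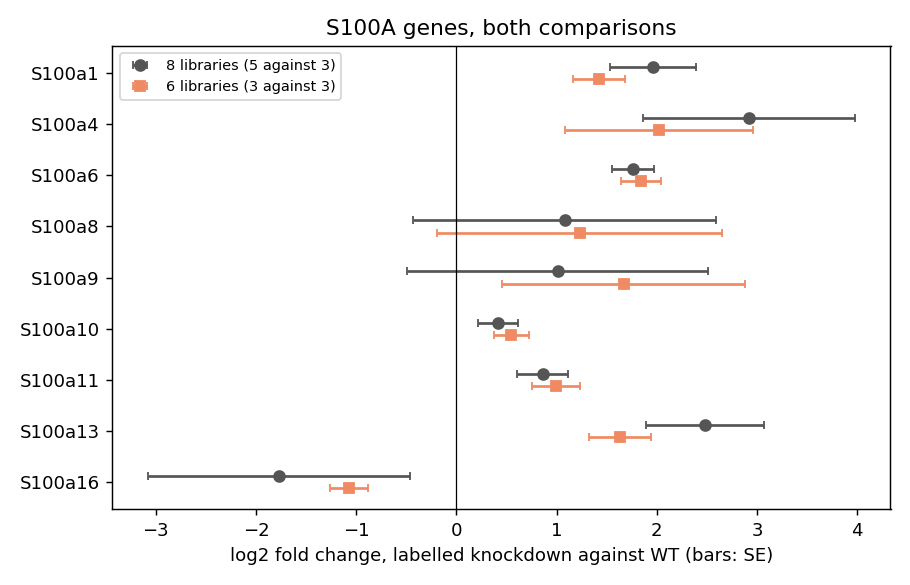
Points give the log2 fold change of each S100A gene, labelled knockdown against WT (x axis), with 8 libraries (grey) and 6 (orange), and bars give 1 SE. S100a6 has nearly the same value in both comparisons, S100a16 is the only member below 0, and the bars of S100a8 are the widest with 6 libraries.

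Other S100 genes were scarce. The table held 6 more, S100a3, S100a5, S100a7a, S100a14, S100b and S100g, of which 4 could be tested with 8 libraries and 3 with 6, and none passed. S100b, the glial marker, ran from 0 to 2.44 CPM in knockdown-labelled libraries and from 0.483 to 1.26 CPM in WT. S100g, the vitamin D dependent calcium-binding protein of intestinal epithelium, reached 12.4 CPM in knockdown-labelled library 3 and was at 3.92 CPM or less in the other 7. That library also had the highest sum of 9 epithelial genes, 1347 CPM against 12.7 to 955 CPM in the other 7 libraries.

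Receptors reported for extracellular S100 proteins were not chosen by the rule. Their list, and those of partners and EF-hand genes, were still drawn up with earlier results of these data known. Counts and p-values for these lists are therefore a description. With 6 libraries, 6 of 13 rose and none fell, where 11.1% of all genes rose and 9.37% fell, and the median log2 fold change was 0.68. Tlr4, the receptor for calprotectin, was at 3.29, 7.76 and 6.59 CPM in knockdown-labelled libraries 3 to 5 and at 0.391, 0.290 and 0.917 CPM in WT, a log2 fold change of 3.46 ± 0.64 (SE, adjusted p = 0.0136, edgeR with Benjamini-Hochberg adjustment). Tlr4 had 9, 9 and 25 counts in WT 1 to 3, so this fold change rests on few WT counts. The co-receptors of Tlr4 rose with it, Cd14 by 2.51 ± 0.59 (adjusted p = 0.0240, edgeR) and Ly96 by 1.59 ± 0.34 (adjusted p = 0.0179, edgeR). The integrin subunits of leukocytes, Itgam (2.48 ± 0.37, adjusted p = 0.00792, edgeR) and Itgb2 (1.24 ± 0.35, adjusted p = 0.0388, edgeR), rose as well. All 5 of these genes are also expressed by macrophages; they were highest in libraries 1 and 2, where Cd14 was at 492 and 509 CPM and Itgam at 223 and 168 CPM, and the part of macrophage genes in the difference was not tested. Alcam, an adhesion molecule, rose by 0.95 ± 0.22 (adjusted p = 0.0224, edgeR), and unlike the others was low in libraries 1 and 2, at 11.7 and 17.4 CPM. Mesenchyme genes had the same order, lowest in libraries 1 and 2 and highest in 3 to 5, with 7 of 13 risen over 6 libraries, and their part in the Alcam difference was not tested.

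Ager, the receptor most often tied to S100 proteins, ran from 2.52 to 8.19 CPM in knockdown-labelled libraries and from 4.30 to 6.83 CPM in WT, with a log2 fold change of 0.19 ± 0.41 over 6 libraries (adjusted p = 0.768, edgeR). Bsg was at 482 to 505 CPM and 524 to 580 CPM, with -0.17 ± 0.16 (adjusted p = 0.458, edgeR). Emb itself did not pass, at 0.67 ± 0.26 (adjusted p = 0.0972, edgeR). With 8 libraries none of the 13 receptors passed.

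Of 36 intracellular partners, 34 were tested with 6 libraries, and 4 rose and 2 fell, at a median of 0.02; the 6 called are a share below the 20.4% of all genes. Ahnak, a giant scaffold held at the membrane by S100a10 and annexin A2, rose by 1.54 ± 0.32 (adjusted p = 0.0170, edgeR). Myh9, the S100a4 partner, rose by 0.74 ± 0.18 (adjusted p = 0.0253, edgeR). Iqgap1, a scaffold of the actin cortex, rose by 0.83 ± 0.20 (adjusted p = 0.0258, edgeR), and Kcnk3, a potassium channel carried to the membrane with S100a10, by 1.07 ± 0.21 (adjusted p = 0.0157, edgeR). Kcnk3 was at 2.99 and 4.24 CPM in libraries 1 and 2, 50.8 to 78.4 CPM in libraries 3 to 5 and 27.3 to 35.4 CPM in WT, the order of the mesenchyme genes, whose part was not tested. Iqgap1 was at 360 and 352 CPM in libraries 1 and 2, 130 to 190 CPM in libraries 3 to 5 and 80.7 to 104 CPM in WT. Myh9 was at 192 and 169, 89.5 to 107 and 51.1 to 68.9 CPM. Both had the order of the macrophage and leukocyte genes, whose part was not tested. Sgta, a co-chaperone, fell by 1.40 ± 0.28 on the log2 scale (adjusted p = 0.0158, edgeR), and Serpinh1, the collagen chaperone, fell by 1.26 ± 0.34 (adjusted p = 0.0357, edgeR). Receptors and partners together gave 12 of 47, which became 20 without knockdown-labelled library 3, 1 without library 4, and 7, 1 and 3 without WT 1, WT 2 and WT 3. Itgam passed whichever library was left out.

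**Figure D5:**
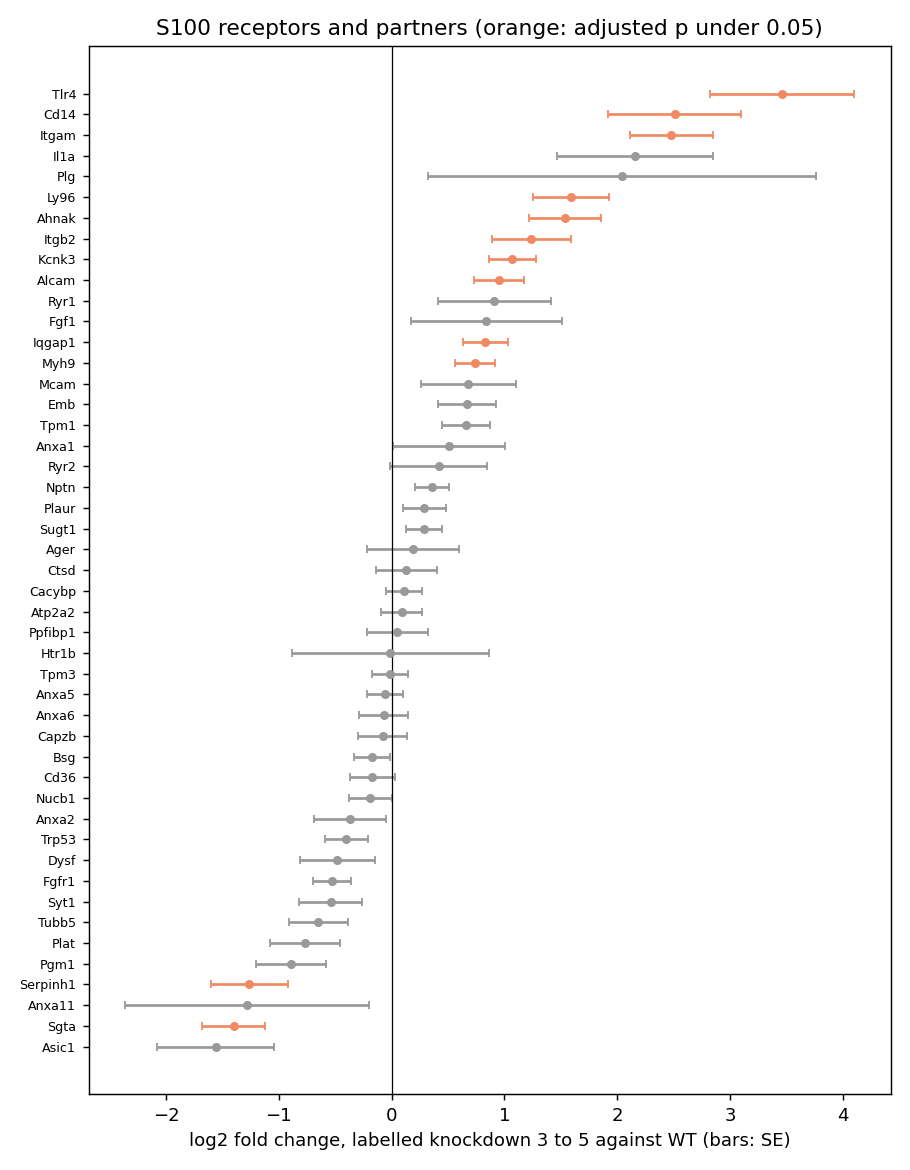
Points give the log2 fold change of 47 receptor and partner genes, knockdown-labelled libraries 3 to 5 against WT (x axis), and bars 1 SE; orange marks adjusted p under 0.05. Tlr4, Cd14 and Itgam are the highest of the genes that passed, and Sgta and Serpinh1 are the ones that fell.

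Related calcium-binding families were also counted. None of 6 further annexins passed with 6 libraries. Of 36 other EF-hand genes, 1 rose and 6 fell, at a median of -0.19; the 7 called are about the share of all genes, 20.4%. Myl6, a myosin light chain, rose by 1.11 ± 0.21 (adjusted p = 0.0140, edgeR). Among those that fell were Aif1l (-1.42 ± 0.18, adjusted p = 0.00449, edgeR), an actin-binding relative of Aif1, and the neuronal calcium sensors Hpca (-1.91 ± 0.39, adjusted p = 0.0158, edgeR) and Ncs1 (-1.17 ± 0.29, adjusted p = 0.0269, edgeR). Aif1l was at 1.80 and 1.65 CPM in libraries 1 and 2, 22.5 to 27.0 CPM in libraries 3 to 5 and 59.3 to 69.4 CPM in WT. Hpca and Ncs1 had the same order, which was also that of the summed neural crest and endothelium genes, whose part was not tested. Aif1l passed whichever library was left out. Apart from Itgam and Aif1l, each call in the lists of receptors, partners and EF-hand genes was lost without knockdown-labelled library 4 and also without WT 2, and lost calls had adjusted p from 0.0539 to 0.176 (edgeR). With 8 libraries none of the genes of these lists passed.

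Position in the cluster was examined through the genes next to the members. Within 250 kb of a member lay 18 other genes, of which 11 were tested with 6 libraries: 1 rose, Dennd4b (1.58 ± 0.42, adjusted p = 0.0327, edgeR), and 2 fell, Npr1 (-1.38 ± 0.36, adjusted p = 0.0310, edgeR) and Ints3 (-0.62 ± 0.18, adjusted p = 0.0461, edgeR), with a median of -0.15. These 3 of 11 stand beside the 20.4% of all genes that passed. With 8 libraries 12 were tested and none passed. The count of neighbours was 5 without knockdown-labelled library 3, 1 without library 5, and 0 without library 4 or any 1 of the WT libraries. Inside the first cluster, S100a14 lies between S100a13 and S100a16, and S100a4 between S100a16 and S100a6. The libraries labelled knockdown were above WT for S100a13 and S100a6 and below WT for S100a16, and the groups overlapped for S100a14 and S100a4.

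Genes with the most similar pattern were sought among 12731 genes by Pearson correlation of log2 CPM over the 8 libraries, for the 7 members with a mean log2 CPM of at least 1. For S100a16 they were Fbxl16 (r = 0.997), Tyro3 (0.996) and Fmod (0.996). For S100a13 they were Ppwd1 (0.997), Ncoa3 (0.995) and Reep5 (0.995), and for S100a1 Hk2 (0.994), Atp2b1 (0.991), a plasma membrane calcium pump, and B4galt1 (0.990). S100a6 was closest to Gm14288 (0.970), Tctex1d2 (0.965) and Mycbp (0.965). S100a10 was closest to Immp1l (0.942), Fgf11 (0.935) and Nudt1 (0.930), and S100a11 to Rpl7 (0.947), Sdhc (0.936) and Rps4x (0.929). S100a8 had the weakest matches, Mical2 (0.867), Arf5 (0.865) and Tfpt (0.814). These are descriptions over 8 points that share the offset of libraries 1 and 2. With the 6 other libraries 0 of the 21 pairs were again among the 3 closest. All 21 still correlated at 0.88 or more over those 6, which share the group labels.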

How the data were processed

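RNA of 8 libraries was made into cDNA with Smart-seq2, and HISAT, Bowtie2 and the build GRCm38.p6 were named in the submitters' processing notes, without versions. Which tool counted reads, and against which annotation, is not given in the sources used here. Per the file headers, the authors estimated the expected counts and left them unnormalised. They also deposited FPKM and TPM, which are scaled per length and library. The normalised counts, a signal, were deposited by the authors and not used, nor were 8 columns of group means. There were 0 columns of other samples. The protocol has no molecular identifiers, so amplified copies count as separate reads and count floors cover counting error only.

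Expected counts, of which 17.6% to 19.8% were not whole, were rounded, filtered with filterByExpr, scaled with TMM and tested in R 4.3.3 by the quasi-likelihood test of edgeR 4.0.16 with robust fitting, two-sided, with Benjamini-Hochberg adjustment over all genes tested and a threshold of 0.05. The SE of a fold change was derived from that test, as the absolute log2 fold change over the square root of the F statistic. CPM values used the scaling of all 8 libraries. TPM was used to compare levels between genes, and for S100a6 also between libraries. Log2 CPM for correlations had a prior count of 2. Alternatives were DESeq2 1.42.0, limma 3.58.1 (voom, and log2(FPKM + 1) and log2(FPKM + 0.1)), other scalings and filters, each library left out and a replicate block. Scripts were tested on simulated data. No libraries were duplicates, chi-square per degree of freedom between a pair of them being at least 30.6. Promoters came from the RefSeq table of GRCm38.p6, which also gave positions for 18507 of 18561 genes, and figures were drawn with matplotlib 3.10.9.

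Members and gene lists were chosen with earlier results of these data known. The rule named all members and Emb, listed genes with up to 6 per list by smallest p first, neighbours past the threshold with up to 4 in each direction, for each member whose mean log2 CPM reached 1 the 3 genes most like it, and any listed marker gene.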

Additional observations from a re-analysis of the deposited data

Results flagged for a closer look

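In the 5 libraries labelled knockdown, the highest and the lowest library of each gene were checked for a gap to the nearest other library above 0.710 of the group's whole range. The check covered 54 genes with a mean of at least 1 CPM over the 8 libraries: members and other S100 genes, receptors, neutrophil genes, the partners and EF-hand genes that passed with 6 libraries, Anxa1, Anxa2, Anxa11 and Cacybp. Less abundant genes such as Ly6g were outside it. Such a gap was found for 7 genes. Chance gives it in about 1 of 20 groups only where values are normally distributed. CPM values need not be, and libraries 1 and 2 stood apart, so no excess over chance is read from the 7. S100a9 was at 19.2 CPM in knockdown-labelled library 4, a gap of 0.870 of the range. S100a11 was at 216 CPM in knockdown-labelled library 3, a gap of 0.797. Of the neutrophil genes, Retnlg was at 52.5 CPM in library 4 (0.982), which also held the S100a9 gap, and Mmp9 at 44.4 CPM in library 1 (0.905). Mpo (4.05 CPM, 0.891), Elane (1.41 CPM, 0.804) and Ctsg (1.74 CPM, 0.947) were highest in library 2.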

How the results depend on the processing

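With 8 libraries, edgeR called 0 of all genes, 0 members and 0 receptors and partners; DESeq2 called 2220, 5 and 10, voom with quality weights 3720, 5 and 13, and the 6-library comparison 3090, 6 and 12. Leaving out 1 library gave 0 to 2, 0 to 0 and 0 to 0. With 6 libraries, voom called 6875 of all genes, 22 receptors and partners and 6 neighbours. Leaving out 1 library gave 180 to 5982 of all genes (5982 without knockdown-labelled library 3, 180 without 4, 1663 without 5, and 1388, 417 and 294 without WT 1, 2 and 3), 1 to 6 members, 1 to 20 receptors and partners and 0 to 5 neighbours. A window of 500 kb gave 5 neighbours. The fold change of S100a9 turned to -0.97 with 8 libraries and -0.42 with 6 without knockdown-labelled library 4, and that of S100a8 to -0.64 with 6; the highest values with 1 library left out, all without WT 3, were 1.91 and 2.56 for S100a9 and 2.86 for S100a8. Of 21 most similar genes, 4 were again chosen by Spearman correlation and 0 with 6 libraries. Scaling by library size alone moved the median of all genes by -0.24 with 8 libraries and -0.08 with 6, and log2(FPKM + 1) by -0.28 and -0.09, and with the latter 38.4% of calls were higher. The causes were not tested.

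With the replicate number as a block, 0 genes, 0 members and 0 receptors and partners were called with 8 libraries, the fold change of S100a9 was -1.26 and that of S100a16 -4.74. Deviations of same-numbered libraries correlated at -0.03, 0.04 and -0.04, so the numbers were not taken as pairs. No paired analysis was possible because the groups share only number 3 among the 6 libraries.

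Levels of S100a4, S100a8 and S100a9 differed several-fold among libraries of 1 label, and S100a9 and S100a4 were at few counts in some of them, so small differences between the groups were not detectable there. No label gives an animal, litter, sex or preparation batch.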
